A study of Mus musculus with 8 samples.

Results

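The genes described here encode the folding, quality control and export machinery of the endoplasmic reticulum (ER), listed by name as 45 genes in 6 roles: 5 stress sensors and their transcription factors, 11 chaperones, 9 disulfide and prolyl isomerases, 8 genes of ER-associated degradation, 9 of translocation into the ER and 3 of transport to the Golgi. Each gene was represented by 1 probe set, the brightest of those that the platform annotation assigns to that gene alone. This found 44 of the 45, among 18193 genes that have such a probe set, and left out Srp54a. All 44 were bright enough to be tested.

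The RNA came from B cells of 12-week-old C57BL/6 mice, either irf4-/- (Irf4 null, n = 4 arrays) or irf4+/+ littermates (wild type, n = 4 arrays). The labels call them mature B cells. Magnetic beads took the other cells out of splenic mononuclear cells, the labels name no stimulation or culture, and RNA was labelled from 6 µg of total RNA for 1 array each. The labels give no sex and do not say that each array is a mouse of its own, so the p-values measure the spread between these arrays, which may be partly technical. Which part of Irf4 was deleted, and where the allele came from, the sources used here do not state.

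Proteins that a cell secretes or displays enter the ER through the Sec61 channel, are cut by the signal peptidase, and fold with the help of chaperones and of isomerases that form disulfide bonds. Misfolded proteins are pulled back and degraded. A shortage of folding capacity is read by the sensors IRE1 (gene Ern1), PERK (Eif2ak3) and ATF6, and the resulting unfolded protein response raises many genes of this machinery, partly through a promoter element called ERSE that ATF6 and NF-Y bind. Plasma cells, whose formation needs the transcription factor IRF4, enlarge this machinery to secrete antibody, while resting B cells carry a small ER.

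Of the 44 genes tested, 1 fell and 1 rose in Irf4 null B cells. Eif2ak3, the kinase that slows translation when the ER is overloaded, fell to a 1.87-fold lower level, a log2 difference of -0.90 ± 0.13 (SE, n = 4 and 4; limma, adjusted p = 0.00351). Pdia4, an ER disulfide isomerase, rose 1.68-fold, a difference of 0.75 ± 0.13 (limma, adjusted p = 0.0106). Folds and differences are on the log2(signal + 16) scale. In RNA of whole preparations, fewer cells of a type and less RNA per cell cannot be told apart. Over all 11798 genes tested at 1 probe set each, 4.37% were called, 2.67% higher and 1.7% lower, so a share of 4.55% among the 44 is near the background. Over all 27022 probe sets 3.52% were called, 2.01% higher and 1.51% lower.

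The other 42 genes did not pass, and 7 of the 44 had an unadjusted p below 0.05 (limma). The median log2 difference of the 44 was 0.03, against 0.025 over all tested genes, and their median absolute difference was 0.084, against 0.155. The 95% interval of the difference lay within 0.5 of 0 on the log2 scale for 34 of the 44, a state shared by 53.1% of all tested genes. These shares were not matched on signal level. For these 34 genes the arrays therefore bound the change to less than that size at the probe set used, not at every probe set of the gene. Ern1 met this only barely, with an interval from -0.50 to 0.36. In another fit its estimate was -0.52, so its change is not firmly bounded. Ero1lb, among the 34, had another probe set at -0.59 ± 0.11, described below. The intervals of the remaining 10 genes reach beyond 0.5. Among those 10, the intervals of Pdia5 (from -0.89 to 0.73), Hyou1 and Fkbp11 hold 0 as well, and those of Eif2ak3, Pdia4, Atf6, Herpud1, Txndc5, Pdia3 and Sdf2l1 do not. The intervals are not adjusted for the number of genes.

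**Figure D1:**
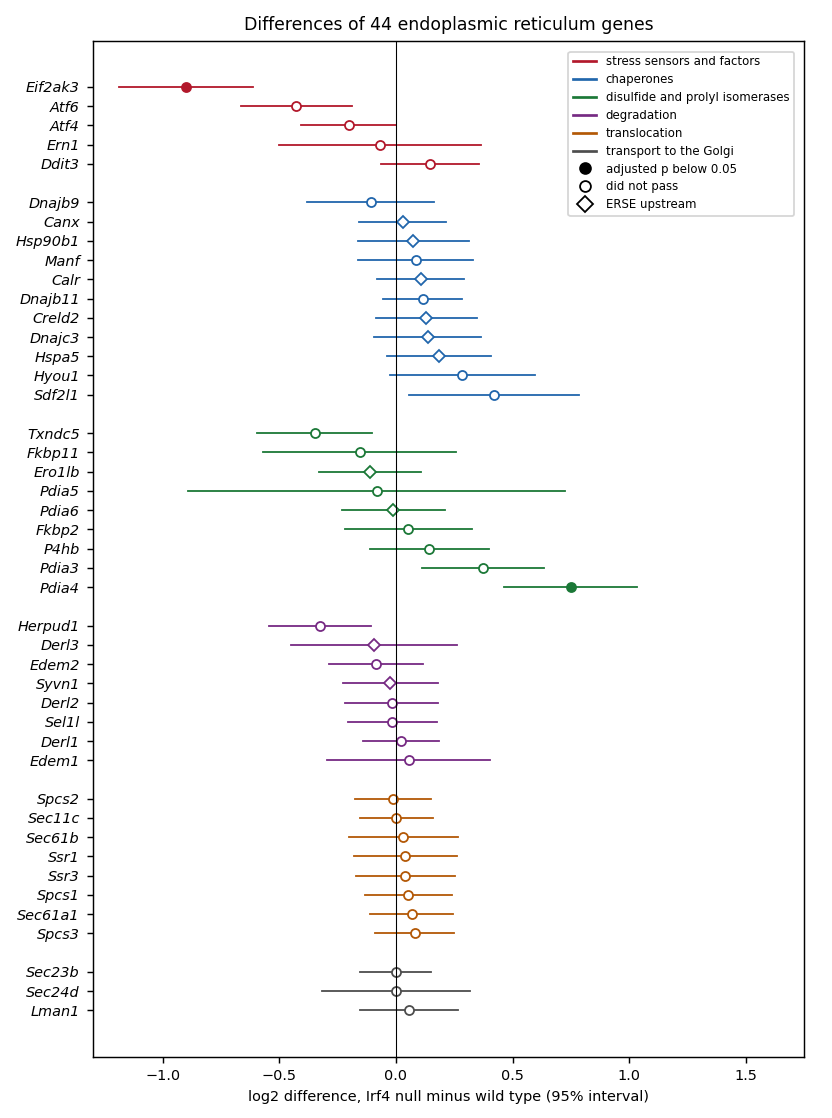
Log2 difference (Irf4 null minus wild type, horizontal axis) of the 44 tested genes, grouped by role. Lines are 95% intervals, and filled symbols passed at an adjusted p below 0.05 (limma). Diamonds mark genes with an exact ERSE match in the upstream window. Eif2ak3 at -0.90 and Pdia4 at 0.75 stand outside the rest, and the translocation and transport genes lie between -0.014 and 0.079.

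The promoter element ERSE was searched in the 250 bases before each annotated gene start, because it is the shared sequence through which several of these genes can be raised together. RefSeq windows (GRCm38.p6) were found for 36 of the 45 genes; Atf6, Hyou1, Manf, Derl1, Sec61a1, Sec11c, Spcs3, Srp54a and Lman1 are named only. The exact letters CCAAT and CCACG with 9 bases between them, on either strand, occurred in 10 of the 36 (27.8%) and in 35 of 27025 genes with a window (0.13%). The matches are printed in the direction of the motif, with the fixed letters of the CCAAT box and of the CCACG part in capitals.

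Calr: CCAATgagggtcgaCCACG
Canx: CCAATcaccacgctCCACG
Creld2: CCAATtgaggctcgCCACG
Derl3: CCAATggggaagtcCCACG
Dnajc3: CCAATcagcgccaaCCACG
Ero1lb: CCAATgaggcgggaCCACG
Hsp90b1: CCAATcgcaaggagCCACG
Hsp90b1: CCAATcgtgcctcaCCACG
Hspa5: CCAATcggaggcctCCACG
Pdia6: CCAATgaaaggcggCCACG
Syvn1: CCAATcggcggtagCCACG

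Hsp90b1 carried 2 matches, and that of Hspa5, at chr2:34772025-34772043 on the strand of the gene, began 65 bases before the start. None of the 10 genes with an exact ERSE match was called at the probe set used (limma). Among all tested genes 4.37% were called, so 0 of 10 is near the background. Their log2 differences ran from -0.11 for Ero1lb to 0.19 for Hspa5, with a median of 0.052 and a lowest adjusted p of 0.396 (limma). Another probe set of Ero1lb, described below, was at -0.59 ± 0.11 and passed (limma, adjusted p = 0.0134). Eif2ak3 and Pdia4 were among the 26 genes without an exact match. Near matches were not searched, so this does not show that an ERSE is absent. The Pdia4 window printed below holds agtggcagcccgtgattgg. On the opposite strand this stretch has the CCAAT box and the 9-base spacing, but CCACT in place of CCACG. A match is a description of the letters and not evidence that a factor binds there.

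The upstream windows of the genes that passed are printed for comparison, with a match to the Ets-IRF element in capitals. This element, searched as GGAA and GAAA with 2 bases between them on either strand, is the composite site that IRF4 is known to bind with the Ets factor PU.1. The first window lies at chr6:70844265-70844514 (+ strand) and the second at chr6:47813513-47813762 (- strand), both 250 bases of GRCm38.p6, 5′ to 3′ along the gene.

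Eif2ak3: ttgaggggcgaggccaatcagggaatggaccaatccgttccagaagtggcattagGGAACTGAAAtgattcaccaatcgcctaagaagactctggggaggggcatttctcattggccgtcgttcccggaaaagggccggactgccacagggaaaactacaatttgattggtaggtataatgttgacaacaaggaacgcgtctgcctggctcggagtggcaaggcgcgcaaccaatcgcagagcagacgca
Pdia4: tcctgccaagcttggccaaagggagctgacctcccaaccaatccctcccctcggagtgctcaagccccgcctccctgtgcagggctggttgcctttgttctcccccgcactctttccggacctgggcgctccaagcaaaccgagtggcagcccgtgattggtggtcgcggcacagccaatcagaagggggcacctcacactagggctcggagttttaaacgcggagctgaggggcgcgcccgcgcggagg

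The Eif2ak3 window held 1 such match, 195 bases before the start, and Dnajb11 was the other of the 36 genes with one (5.56%, against 2.68% of all genes). The Pdia4 window held no exact match to any of the 6 motifs searched. The others were ERSE-II (ATTGG and CCACG with 1 base between, in Herpud1 only, 2.78% against 0.037% of all genes), the UPRE core TGACGTGG (Txndc5 and Sec24d, 5.56% against 0.603%), the amino acid response element TTGCATCA (Herpud1 only, 2.78% against 0.918%) and the IRF element of GAAA and GAAA with 2 bases between (Txndc5 and Sec23b, 5.56% against 3.46%). The Ets-IRF and IRF elements can overlap each other.

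The stress sensors and their factors, 5 genes, gave 1 lower, 0 higher and 4 not passing; the median log2 difference was -0.20. Eif2ak3 read 5280, 5474, 4648 and 4773 on wild-type arrays 1 to 4 and 3487, 2677, 2645 and 2116 on Irf4 null arrays 1 to 4. Every Irf4 null array lay below every wild-type array, with array 1 nearest to wild type. A second tested Eif2ak3 probe set was dim, with means of 142 in wild type and 104 in Irf4 null, and did not pass (-0.43 ± 0.19, limma, adjusted p = 0.29).

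Eif2ak3 kept its call and its direction in 20 of 21 other ways of fitting the data. Sex is not labelled, but Xist is expressed from the inactive X chromosome of females. Its signal was over 1000 on wild-type arrays 1, 3 and 4 and Irf4 null array 1 and at most 94.8 on the others. Eif2s3y, on the Y chromosome, went the other way, from 3.31 to 25.4 on the Xist-high arrays and from 3216 to 4530 on the others. By both RNAs the Xist-high arrays read as female and the others as male, so sex was uneven between the genotypes. Within the Xist-high arrays (3 wild type, 1 Irf4 null) the Eif2ak3 difference was -0.49 ± 0.12 (limma, adjusted p = 0.125), and within the Xist-low arrays (1 and 3) it was -1.15 ± 0.17 (limma, adjusted p = 0.0461). The difference between these values was not tested, and the lone array of a genotype is assumed there to vary like the rest. With Xist-high as a term it was -0.82 ± 0.14 (limma, adjusted p = 0.012), and with markers of other cells as a covariate -0.87 ± 0.16 (limma, adjusted p = 0.0218).

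Atf6, the sensor that is cut in the Golgi to free a transcription factor, read 1234, 1678, 1315 and 1217 on the wild-type arrays and 1016, 964, 1044 and 977 on the Irf4 null ones. The groups did not overlap, and the difference of -0.43 ± 0.11 did not pass (limma, adjusted p = 0.0555). It passed in 5 of 21 other fits, among them that with the Xist-high term (-0.52, limma, adjusted p = 0.0351) and that without wild-type array 2 (-0.32, limma, adjusted p = 0.0375). A second Atf6 probe set, at a mean of 924 in wild type and 775 in Irf4 null, gave -0.25 ± 0.14 (limma, adjusted p = 0.4).

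Ern1, which encodes the sensor IRE1 that splices Xbp1 RNA, read 329, 611, 331 and 426 on the wild-type arrays and 313, 453, 381 and 431 on the Irf4 null ones. Its groups overlapped over most of their range, and the estimate was -0.07 ± 0.20 (interval from -0.50 to 0.36; limma, adjusted p = 0.906). Atf4, the transcription factor whose translation PERK activity favours, had an RNA estimate of -0.20 ± 0.09 (limma, adjusted p = 0.298). Ddit3, the ATF4 target that encodes CHOP, stood at 0.15 ± 0.10 (limma, adjusted p = 0.49), from 705 ± 52.4 (SD, n = 4) in wild type to 782 ± 59.8 in Irf4 null. A second Ddit3 probe set was of the other sign, at -0.067 ± 0.10 (limma, adjusted p = 0.794). Arrays measure RNA, so neither the splicing of Xbp1 nor the activity of any sensor was read.

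**Figure D2:**
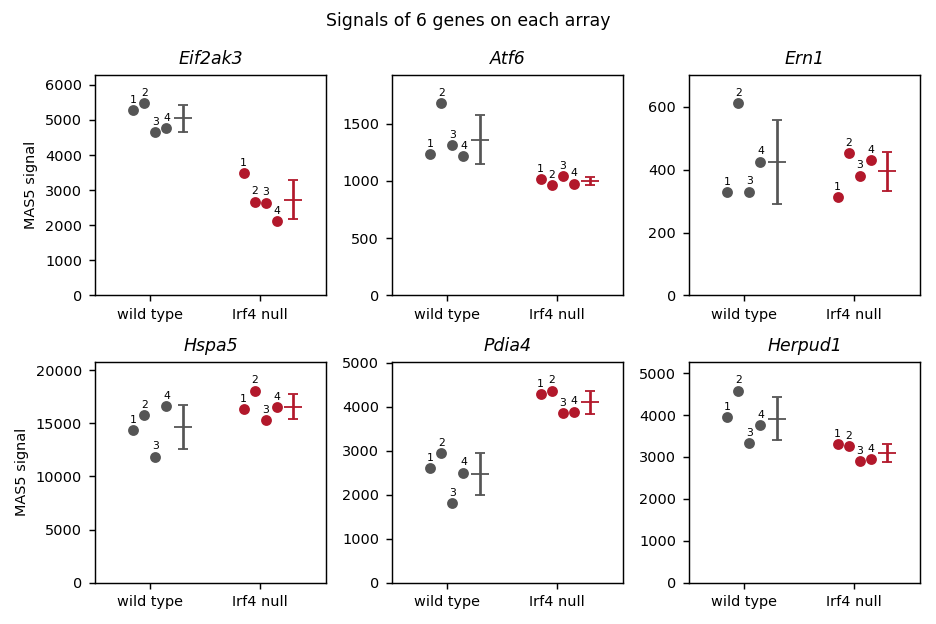
MAS5 signal (vertical axis, from 0) of 6 genes on each wild-type and Irf4 null array, numbered by replicate; the bar beside each group is the mean with its SD (n = 4). The groups do not overlap for Eif2ak3, Atf6, Pdia4 and Herpud1, and overlap for Ern1 and Hspa5.

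None of the 11 chaperones passed (limma; 1 at an unadjusted p below 0.05). Their median log2 difference was 0.11, and 10 of the 11 estimates were above 0. Hspa5, the chaperone BiP that also holds the sensors inactive, read 14364, 15790, 11872 and 16588 on the wild-type arrays and 16347, 18076, 15273 and 16555 on the Irf4 null ones. Wild-type arrays 1 and 3 lay below every Irf4 null array and arrays 2 and 4 within their range, and the estimate was 0.19 ± 0.10 (interval from -0.04 to 0.41; limma, adjusted p = 0.396). A second Hspa5 probe set, with means of 9228 and 10507, gave 0.20 ± 0.11 (limma, adjusted p = 0.38).

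Hsp90b1, the ER member of the HSP90 family (GRP94), read 12823, 12492, 10556 and 11490 on the wild-type arrays and 11967, 13404, 10225 and 14568 on the Irf4 null ones. Both groups held high and low arrays, and the estimate was 0.07 ± 0.11 (limma, adjusted p = 0.791). Sdf2l1, which works with BiP, had the largest chaperone estimate. It read 942, 1398, 785 and 919 on the wild-type arrays and 1121, 1554, 1275 and 1393 on the Irf4 null ones, so wild-type array 2 lay above all but 1 of the Irf4 null arrays. Its difference of 0.42 ± 0.16 did not pass (limma, adjusted p = 0.217). Without wild-type array 2 it was 0.58 ± 0.12 and passed (limma, adjusted p = 0.0145), and with the Xist-high term it was 0.18 ± 0.12 (limma, adjusted p = 0.591).

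Hyou1, a large HSP70-like exchange factor of BiP, read 717, 1056, 1084 and 833 on the wild-type arrays and 1063, 965, 1171 and 1270 on the Irf4 null ones. The groups overlapped (0.28 ± 0.14, limma, adjusted p = 0.343). The BiP cochaperones Dnajb11, Dnajc3 and Dnajb9 stood at 0.11, 0.14 and -0.11, and the lectin chaperones Calr and Canx, which hold newly glycosylated proteins, at 0.11 and 0.029. Further probe sets gave 0.21 and 0.24 for Calr, 0.058 and 0.10 for Canx and 0.17 to 0.30 for Dnajc3, and none passed (limma). The secreted stress-inducible proteins Manf and Creld2 were at 0.085 and 0.13.

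Among the 9 isomerases 1 rose, 0 fell and 8 were not called; the median was -0.012. Pdia4 read 2612, 2939, 1813 and 2501 on the wild-type arrays and 4287, 4363, 3852 and 3886 on the Irf4 null ones. All 4 Irf4 null arrays lay above all 4 wild-type arrays, and their means were 2466 ± 474 and 4097 ± 266 (SD, n = 4 each). The only other Pdia4 probe set was too dim to test, with means of 19.4 and 28.1. Pdia4 kept its direction in all 21 other fits and passed in 18. It did not pass within the Xist-high arrays (0.91 ± 0.19, limma, adjusted p = 0.0661), within the Xist-low arrays (0.45 ± 0.14, limma, adjusted p = 0.275), or with the average signal of markers for other cells entered as a covariate (0.65 ± 0.16, limma, adjusted p = 0.0677).

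Summed over T and NK cells, neutrophils, macrophages, dendritic and erythroid cells and platelets, those markers were higher on the Xist-low arrays. Their summed signal was 28074 to 40140 on Xist-high arrays and 64657 to 122697 on Xist-low ones. This did not hold for each cell type. The platelet sum was highest on Irf4 null array 1, which is Xist-high, at 5294. Erythroid sums overlapped, with 6487 on Xist-high wild-type array 4 and 4909 on Xist-low Irf4 null array 4. Of the 42 markers of other cells listed, 39 had a probe set and 37 were tested. In Irf4 null 2 were higher, Prf1 and Ppbp, and 0 lower. By genotype the sum ran from 28074 to 105304 in wild type and from 40140 to 122697 in Irf4 null, and wild-type array 2 was the highest of its group. The part of these cells in the Pdia4 signal was not tested beyond that covariate. Among the dimmest markers were Cd4 and Hba-a1, at most 12.2 on any array. Of 6 B cell markers, 5 had a probe set, 0 passed, and their summed signal ran from 57996 to 67815 and from 59352 to 64154.

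Pdia3, the isomerase ERp57 that serves glycoproteins with calnexin and calreticulin, read 4293, 5314, 3383 and 4103 on the wild-type arrays and 5023, 5841, 5517 and 5537 on the Irf4 null ones. Only wild-type array 2 reached into the Irf4 null range, and the difference of 0.37 ± 0.12 did not pass (limma, adjusted p = 0.125). Without that array it was 0.48 ± 0.09 and passed (limma, adjusted p = 0.0114), and with the Xist-high term it was 0.22 ± 0.10 (limma, adjusted p = 0.376). P4hb, the founding protein disulfide isomerase, stood at 0.14 and Pdia6 at -0.012. A dimmer Pdia6 probe set, with means of 180 in wild type and 132 in Irf4 null, gave -0.41 ± 0.16 and did not pass (limma, adjusted p = 0.205). Pdia5 was dim and scattered, from 62.9 to 247 in wild type and from 75.7 to 179 in Irf4 null. The prolyl isomerases Fkbp2 and Fkbp11 were at 0.053 and -0.16.

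Probe sets differed in their call for Txndc5, a thioredoxin-domain isomerase, and for Ero1lb, the oxidase ERO1-beta that recharges the isomerases. All of their estimates were below 0. Both genes were singled out after their values were seen. The brighter Txndc5 probe set, used for the count above, gave -0.35 ± 0.11 and did not pass (limma, adjusted p = 0.13). The other read 3020, 2764, 3166 and 2798 on the wild-type arrays and 1921, 1877, 2292 and 1867 on the Irf4 null ones, without overlap, and was lower by -0.56 ± 0.09 (limma, adjusted p = 0.00557). For Ero1lb the brightest probe set gave -0.11 ± 0.10 (limma, adjusted p = 0.632). A dimmer one read 1004, 806, 938 and 1109 on the wild-type arrays and 624, 598, 674 and 637 on the Irf4 null ones, also without overlap, and was lower by -0.59 ± 0.11 (limma, adjusted p = 0.0134). The third Ero1lb probe set was at -0.50 ± 0.15 (limma, adjusted p = 0.106).

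With the Xist-high term the lower Txndc5 probe set was at -0.55 (limma, adjusted p = 0.0182) and that of Ero1lb at -0.51 (limma, adjusted p = 0.0496). Over 20 other fits the Txndc5 probe set was called in 19, all but that within Xist-low arrays (-0.46, limma, adjusted p = 0.359). The Ero1lb probe set was called in 15. It missed with the marker covariate (-0.47, limma, adjusted p = 0.0958), without wild-type array 1 (-0.56, limma, adjusted p = 0.0506) and without Irf4 null array 2 (-0.56, limma, adjusted p = 0.0507). It also missed within Xist-high (-0.69, limma, adjusted p = 0.0722) and within Xist-low arrays (-0.34, limma, adjusted p = 0.53). When each gene's probe sets were averaged, 4 of the 44 genes were called: Pdia4 higher and Eif2ak3, Txndc5 and Ero1lb lower. Over all 11802 genes averaged in this way, 371 were higher and 242 lower, or 5.19%. Txndc5, Ero1lb and the translocon gene Ssr1 are the 3 tested genes on chromosome 13, which also carries Irf4. Ssr1 stood at 0.04 ± 0.10. Whether sequence around the targeted allele differs between the groups under these probes was not tested. In all, 30 of the 44 genes had at least 1 further tested probe set, 55 in total, and those of Txndc5 and Ero1lb were the 2 that passed.

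Degradation genes, 8 in number, gave 0 calls (limma; 1 at an unadjusted p below 0.05) and a median of -0.022. Herpud1, a membrane protein that gathers the degradation complex, read 3960, 4583, 3335 and 3769 on the wild-type arrays and 3314, 3255, 2900 and 2944 on the Irf4 null ones. The groups were separate by a narrow margin, between wild-type array 3 and Irf4 null array 1, and the difference of -0.33 ± 0.10 did not pass (limma, adjusted p = 0.107). The second Herpud1 probe set was at -0.37 ± 0.14 (limma, adjusted p = 0.2). Its ERSE-II, printed here as the 1 match among the genes, lies at chr8:94386377-94386387 on the strand of the gene.

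Herpud1: ATTGGgCCACG

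Derl3, a derlin that is prominent in secretory cells, was dim and read 189, 211, 211 and 178 on the wild-type arrays and 150, 199, 159 and 235 on the Irf4 null ones. The Irf4 null arrays spread around the wild-type range (-0.10 ± 0.16, limma, adjusted p = 0.823). The other derlins Derl1 and Derl2 were at 0.022 and -0.019, and the ubiquitin ligase Syvn1 (HRD1) and its partner Sel1l at -0.024 and -0.015. The mannosidase-like Edem1 and Edem2, which mark glycoproteins for removal, were at 0.054 and -0.085.

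At the probe sets used, the 8 tested translocation genes were the most even of the larger roles, from -0.014 to 0.079. They gave 0 calls (limma, 0 at an unadjusted p below 0.05) and a lowest adjusted p of 0.663. Further probe sets ranged more widely, up to 0.27 ± 0.12 for Sec11c (limma, unadjusted p = 0.0449, adjusted p = 0.278). None of these passed. Sec61a1, the channel itself, read 4356, 4809, 3842 and 4203 on the wild-type arrays and 4728, 4205, 4643 and 4421 on the Irf4 null ones. Spcs3, of the signal peptidase, read 2736, 3118, 2824 and 2934 on the wild-type arrays and 2902, 2916, 3103 and 3360 on the Irf4 null ones. Both overlapped, at 0.07 ± 0.08 and 0.08 ± 0.08. The signal peptidase subunits Sec11c, Spcs1 and Spcs2 stood at 0.0012, 0.052 and -0.014, Sec61b at 0.031, and Ssr3, of the translocon-associated complex, at 0.04.

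None of the 3 transport genes passed (limma; 0 at an unadjusted p below 0.05). Lman1, the cargo receptor ERGIC-53, read 1039, 1269, 1002 and 1083 on the wild-type arrays and 1247, 1120, 1076 and 1117 on the Irf4 null ones. Sec23b, a coat protein of the vesicles that leave the ER, read 2154, 1997, 2072 and 2196 on the wild-type arrays and 2125, 2019, 2171 and 2093 on the Irf4 null ones. Sec23b was the steadiest in wild type, with an SD of 0.06 on the log2 scale, and its interval ran from -0.15 to 0.15. Sec24d, another coat protein, was at -0.00015 with an interval from -0.32 to 0.32.

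These values stood beside a large loss of plasma cell RNA. In wild type Jchain, the chain that joins IgA and IgM units, read 2436, 12829, 2222 and 2767, and in Irf4 null it read 29.8, 58.9, 40.2 and 45.4. Of 8 plasma cell markers 7 were tested and 4 fell, Jchain, Igha, Sdc1 and Eaf2, while Xbp1, Prdm1 and Slamf7 did not pass. The summed signal of the 8 ran from 15826 to 40274 in wild type and from 8944 to 10347 in Irf4 null, without overlap. Xbp1, which did not pass, made up most of the Irf4 null sums. It read 8084 to 9564 there and 7600 to 11043 in wild type, so the sums understate the fall of the other markers. The part of plasma cells in the level of any gene described here was not tested.

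Wild-type array 2, with the most Jchain and Igha, also had the highest ER gene signals of its group. Eaf2 and Prdm1 were highest there too, whereas Sdc1 was lowest, at 198 against 345, 486 and 611 on wild-type arrays 1, 3 and 4. It was the highest wild-type array for 31 of the 44 genes, and its median deviation from the wild-type mean was 0.17 on the log2 scale. The other wild-type arrays stood at -0.0083, -0.13 and -0.021, and array 3 was the lowest of the group for 27 genes. On Irf4 null arrays 1 to 4 the median was 0.045, 0.047, -0.0091 and 0.043, inside the range of the wild-type arrays. Over all tested genes these medians lay between -0.0083 and 0.035. The arrays share the same trimmed mean signal, which keeps that range narrow, so it does not show that the ER genes varied unusually. Wild-type array 2 was also the only Xist-low array of its group and carried the most RNA of other cell types there, and the part of each in the ER signal cannot be told apart.

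**Figure D3:**
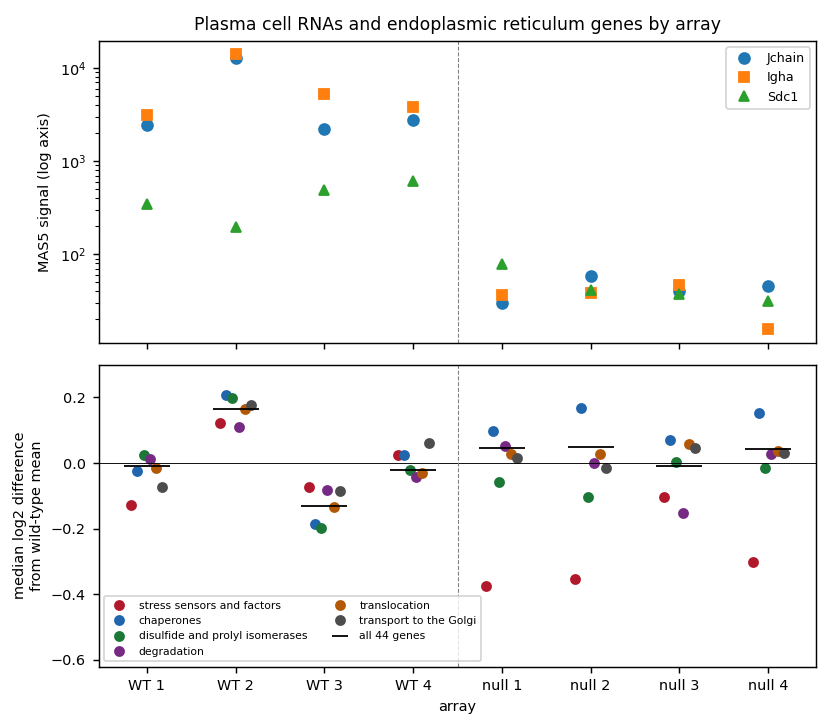
Top, MAS5 signal (log axis) of the plasma cell RNAs Jchain, Igha and Sdc1 on each array. Bottom, median log2 difference from the wild-type mean for each role (points) and all 44 genes (black bars): wild-type array 2 is highest at 0.17, and the Irf4 null arrays lie between -0.0091 and 0.047 while their Jchain is at most 58.9.

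By role, the medians of the stress sensors were -0.37, -0.35 and -0.30 on Irf4 null arrays 1, 2 and 4 and -0.10 on array 3, against -0.13 to 0.12 in wild type, so 3 of the 4 Irf4 null arrays lay below all wild-type arrays. The degradation genes did so on Irf4 null array 3 alone, at -0.15 against a lowest wild-type median of -0.082. The chaperones stood at 0.071 to 0.17 on the Irf4 null arrays and at -0.19 to 0.21 in wild type. Across the 44 genes, the arrays of the genotypes did not overlap for Pdia4 upward and for Eif2ak3, Atf6 and Herpud1 downward. That is 4 genes of 44, where 12.8% of all tested genes were separate, 7.13% upward and 5.71% downward (10.8%, 5.48% and 5.33% of all probe sets), so the share here is near the background.

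Without wild-type array 2, 6 of the 44 genes were called. Pdia4, Pdia3 and Sdf2l1 were higher and Eif2ak3, Atf6 and Txndc5 lower. In that fit 10.8% of all genes were called, 838 higher and 439 lower of 11788. The count over all probe sets rose likewise, from 950 to 2171, and it was 457 to 565 without wild-type array 1, 3 or 4 or Irf4 null array 2 or 4. Spread within a group was otherwise modest, with a median SD of 0.166 on the log2 scale in wild type and 0.108 in Irf4 null. Pdia5, at an SD of 0.768 in wild type, and Ern1, at 0.406, varied most there, both highest on array 2, and Edem1, Fkbp11 and Pdia5 were the most scattered in Irf4 null (0.382, 0.354 and 0.487).

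**Figure D4:**
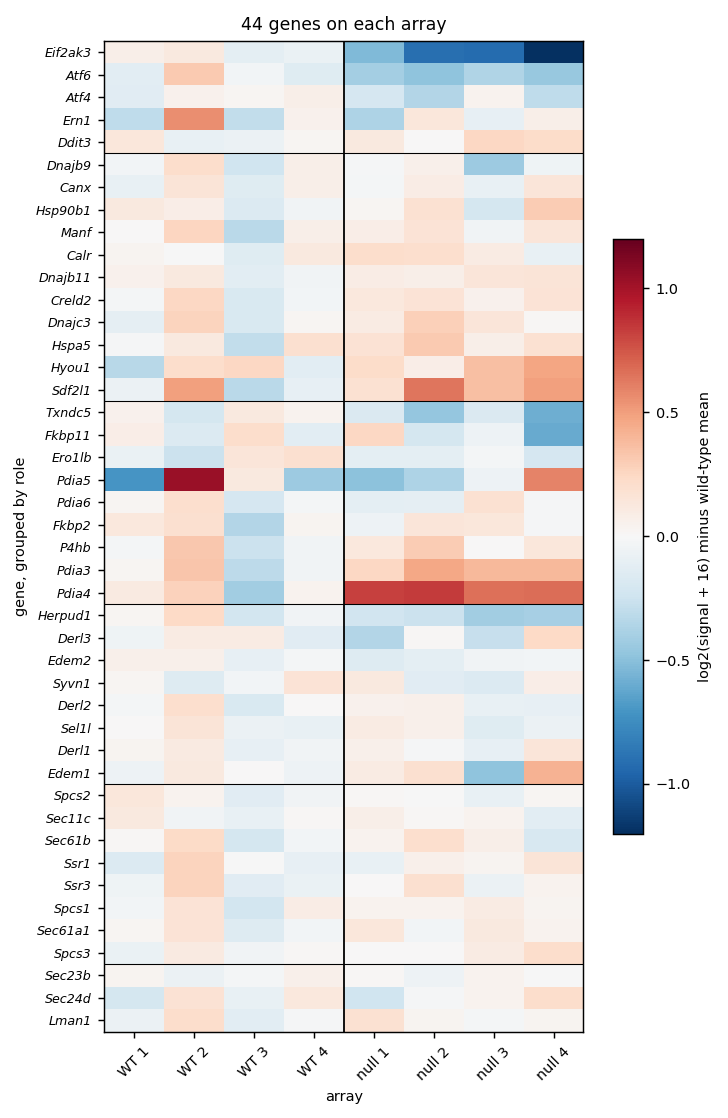
Log2(signal + 16) of the 44 genes (rows, grouped by role) on each array (columns), as the difference from the wild-type mean. The rows of Eif2ak3 and Pdia4 separate the genotypes, the column of wild-type array 2 is mostly above 0 and that of wild-type array 3 mostly below, and most other rows show no split.

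A further 66 genes of the pathway, fixed as a list with earlier results known, are given beside these. Of the 62 tested, 2 fell, 0 rose and 60 were not called (limma; 8 at an unadjusted p below 0.05), with a median of -0.0052; 3.23% were called. Txndc11, a thioredoxin-domain protein of the ER, read 462, 512, 476 and 533 on the wild-type arrays and 365, 352, 348 and 320 on the Irf4 null ones, and fell by 0.50 ± 0.10 on the log2 scale (limma, adjusted p = 0.0222). Edem3, a mannosidase of the degradation route, read 2634, 2749, 2404 and 2569 on the wild-type arrays and 2093, 2116, 1863 and 1927 on the Irf4 null ones, and fell by 0.37 ± 0.08 (limma, adjusted p = 0.0246). For both, every Irf4 null array was below every wild-type array. With the Xist-high term neither passed. Without wild-type array 4 or Irf4 null array 3 or 4, 0 of the 62 passed, and without wild-type array 1 or 3 or Irf4 null array 2, 1 did (limma).

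Xbp1, the transcription factor that IRE1 activates by splicing, read 8816, 11043, 7600 and 9297 on the wild-type arrays and 8613, 9564, 8084 and 8381 on the Irf4 null ones. The groups overlapped, at -0.08 ± 0.11 (limma, adjusted p = 0.781), and wild-type array 2 was again the highest. The targeted gene itself read 2035, 1720, 1779 and 2341 on the wild-type arrays and 285, 259, 244 and 315 on the Irf4 null ones, as the labels require, although probes outside the deleted part would not show it. All 8 arrays had the same trimmed mean signal, 500.003, and correlated at 0.960 to 0.982 over the tested probe sets.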

How the data were processed

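The deposited values are signal intensities, linear, 1 for each probe set on each array; the submitters' processing notes name MAS5, and the sources used here state neither its version nor its target. Of 45101 probe sets, 34958 had 1 gene symbol, 932 several and 9211 none here; symbols were updated to RefSeq (GRCm38.p6), used for names and upstream windows only. The 64 control probe sets and the lowest 40% by mean log2(signal + 16) were dropped (mean log2 up to 5.88), leaving 27022. No detection calls were used, so no gene is called absent. Irf4 null was compared with wild type with limma 3.58.1 (R 4.3.3, variance trend) and Benjamini-Hochberg adjustment over all tested probe sets, at 0.05; differences are Irf4 null minus wild type with SE. The fit was tested on simulated data. The number of arrays limits precision. No array columns held identical values. The genes and lists were chosen with earlier results of these data known. Signals on each array are given for called genes, the pair with the largest differences in each role, Hspa5, Hsp90b1 and the sensors, then Xbp1 and called genes of the wider list. Fits within Xist-high and Xist-low arrays were added after the data were seen. Alternatives varied the pseudocount, filter, normalization, variance model, array weights, replicate block, Xist-high term (signal over 1000), marker covariate, probe set choice and arrays left out. Figures used matplotlib 3.10.9.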

Additional observations from a re-analysis of the deposited data

How the results depend on the processing

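Eif2ak3 lost its call only within Xist-high arrays, and Pdia4 within either Xist group and with the marker covariate, of 21 alternatives each. The count of genes called, 2 of 44, was 5 with array weights, 4 with the mean of all probe sets, 0 within Xist-high arrays, 1 within Xist-low ones, and 2 to 6 with 1 array left out, the 6 without wild-type array 2. The median, 0.03, was -0.113 within Xist-low arrays and from -0.022 to 0.104 with 1 array left out. The 2 calls among other pathway genes became 1 without a variance trend, 0 with the Xist-high term, the marker covariate, the mean of all probe sets and within either Xist group, and 0 to 3 with 1 array left out. Probe sets called, 950, were 555 without a variance trend, 1746 with array weights, 540 with the marker covariate, 326 within Xist-high arrays, 114 within Xist-low ones, and 457 to 2171 with 1 array left out. The fits within Xist groups use 4 arrays. Whether the replicate numbers pair the arrays was not settled. Same-number correlations of deviations ran from -0.0807 to 0.277, and 4 of 8 arrays were closest to their own number. With the number as a replicate block 2 genes were called, the median stayed at 0.03, 2 other pathway genes passed and 1168 probe sets were called. None of 88 gene and genotype groups held an outlying array by Dixon's test. That test took 4 arrays and a single gene at a time, so it cannot show a shift shared across genes, such as that of wild-type array 2. Of the 44 genes, the dim Pdia5, Ern1 and Fkbp11 had the widest intervals.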
